A study of Mus musculus with 8 samples.

Results

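In situ Hi-C libraries of mouse B cells taken 10 h and 3 h after activation were compared, with 2 biological replicates at each time. They are 4 of the 8 libraries given and were chosen by the time in their labels alone. The cells were B cells of the spleen of male C57BL/6 mice, 6 to 12 weeks old, isolated by depletion of other cells and cultured with lipopolysaccharide (LPS) at 25 µg/ml. Both groups carry this treatment, so no unstimulated cells enter the comparison, and both were labelled with a dye that thins at each division and sorted as undivided CD69+ cells. The other 4 libraries were taken at 33 h, from cells close to their first division and from FUCCI reporter mice sorted before S phase, and served here to estimate the spread between replicates and, with the 3 h and 10 h libraries, to assign bins to compartments A and B and to place insulation minima. A Hi-C read pair stands for 2 pieces of chromatin that lay close together in the nucleus, and every value below was computed from raw counts of read pairs per pair of 50 kb bins.

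LPS is a bacterial product that B cells sense through Toll-like receptors, and within hours it sets off NF-κB and immediate early genes, growth and entry into the cell cycle. Chromosomes are folded on several scales. Contacts fall with distance along the chromosome, active (A) and inactive (B) chromatin keep apart in compartments, and contacts are more frequent within topologically associating domains than across their borders, where cohesin is often held by the DNA-binding protein CTCF. A contact count is a mean over many cells, so a change in each cell cannot be told apart from a change in a part of the cells.

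The 3 h libraries held 88703088 and 170436624 read pairs, the 10 h libraries 116957398 and 153258311, and 47339 of 48088 autosomal bins were kept. The first 3 h library was the shallowest, and the 3 h libraries lay on either side of the 10 h libraries in their balance between compartments. Observed over expected contact was taken from cis pairs from 400 kb up, among the 20% of bins deepest in A and the 20% deepest in B. Between these B regions it was 1.10 and 1.25 in the 3 h libraries and 1.17 and 1.18 at 10 h. Between these A regions it was 1.97 and 1.83 at 3 h and 1.87 and 1.86 at 10 h. All 10 B cell marker genes lay in A, but so did 6 of 8 T cell, 7 of 7 myeloid and 5 of 8 liver, heart and neuron markers, so compartments do not separate these cell types.

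The first question was whether the maps as a whole changed between 3 h and 10 h. They changed little, and what changed was the decay of contacts with distance. The slope of log contact on log distance from 500 kb to 7 Mb was -0.97 and -0.96 at 3 h and -1.01 and -1.01 at 10 h, so the decay was steeper in both 10 h libraries and the groups did not overlap. The share of cis pairs (both ends on 1 chromosome) beyond 1.5 Mb was 53.6% and 53.5% at 3 h and 52.1% and 53.3% at 10 h. The share of cis pairs within a single 50 kb bin was 12.7% and 12.9% at 3 h and 12.3% and 11.6% at 10 h. For these 3 measures the exact two-sided permutation p was 0.333, the smallest that 2 libraries against 2 can give, and 0.667 after adjustment over 6 measures.

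The other 3 measures overlapped between the groups. The interchromosomal share of read pairs was 26.6% and 25.1% at 3 h and 24.8% and 25.3% at 10 h. Compartment strength is the contact within A and within B over that between them, for the 20% of bins deepest in A and in B only. It was 15.5 and 15.9 at 3 h and 16.9 and 15.7 at 10 h. The median depth of insulation minima was 0.79 and 0.81 at 3 h and 0.82 and 0.80 at 10 h on the log2 scale. Each had an exact permutation p of 0.667.

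The change of decay was then located by distance, with each autosome and distance class tested as 1 feature. Contacts from 400 kb to 1.6 Mb took a larger share of cis pairs at 10 h on all 19 autosomes, and contacts within a bin took a smaller share on all 19. Autosomes share the same libraries, so a like change on all of them is no count of replicates. Of 228 features 111 passed a false discovery rate (FDR) of 5% in edgeR's quasi-likelihood test (48.7%), 80 with a larger share at 10 h and 31 with a smaller one. From 800 kb to 1.6 Mb the share was 5.43% and 5.37% at 3 h and 5.83% and 5.96% at 10 h. The median log2 change was 0.12, from 0.09 on chromosome 15 to 0.16 on chromosome 16, and all 19 autosomes passed. From 400 to 800 kb the share was 6.02% and 5.93% at 3 h and 6.46% and 6.50% at 10 h, with a median log2 change of 0.12 and 19 autosomes called.

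On either side of that range the gain faded. From 200 to 400 kb 18 autosomes rose and the median log2 change was 0.08, and from 100 to 200 kb 6 rose and it was 0.06. From 1.6 to 3.2 Mb 18 rose with a median of 0.09. These counts rest on single libraries more than those from 400 kb to 1.6 Mb. From 200 to 400 kb 3 autosomes were called without 10 h replicate 1, 6 without 3 h replicate 2 and 11 without 3 h replicate 1. From 100 to 200 kb 0 were called without 10 h replicate 1 or 3 h replicate 1 and 3 without 3 h replicate 2. From 1.6 to 3.2 Mb 3 were called without 10 h replicate 2, 11 without 3 h replicate 2 and 12 without 3 h replicate 1.

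Between neighbouring bins 50 kb apart and from 3.2 to 6.4 Mb no autosome was called. Farther out the share was lower. From 12.8 to 25.6 Mb it was 10.4% and 10.3% at 3 h and 9.88% and 10.1% at 10 h, with 6 autosomes called lower and a median log2 change of -0.04. From 25.6 to 51.2 Mb it was 13.3% and 13.3% at 3 h and 12.7% and 13.0% at 10 h, with 3 called. The 6 fell to 1 without 10 h replicate 1 and 2 without 3 h replicate 1, and the 3 to 1 and 0, while 9 were called with same-bin pairs left out, 6 with TMM factors and 5 with DESeq2 from 25.6 to 51.2 Mb. Chromosomes 11 and 19 held the strongest far losses, at -0.12 on chromosome 11 from 25.6 Mb and -0.12 on chromosome 19 from 12.8 Mb.

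**Figure D1:**
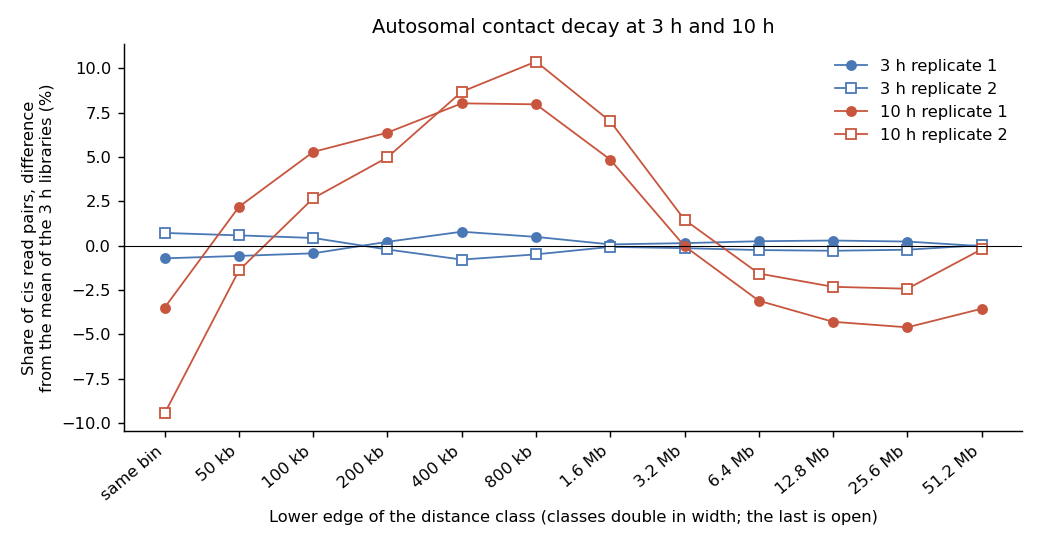
The horizontal axis gives the lower edge of each distance class, on steps that double, and the vertical axis the difference of each library's share of cis read pairs from the mean of the 3 h libraries, in percent. Lines join the points of 1 library. Both 10 h libraries sit above both 3 h libraries at the points from 100 kb to 1.6 Mb and below them within a bin and from 6.4 Mb, and the groups overlap at 50 kb and 3.2 Mb.

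The loss within a bin was less even between libraries than the gain. Its median log2 change was -0.10, and all 19 autosomes were called with all libraries, but leaving out 1 library left 0 of them in the case of 10 h replicate 2, 3 for 3 h replicate 2 and 10 for 3 h replicate 1. The gain from 400 to 800 kb was called on 17 to 19 autosomes, and that from 800 kb to 1.6 Mb on 16 to 19, whichever of these 4 libraries was left out. The same was so when pairs within a bin were left out of the totals, with 19 and 19 autosomes. Over all classes the count of 111 became 69 without 10 h replicate 2, 70 without 3 h replicate 2 and 72 without 3 h replicate 1.

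Contacts between different chromosomes were tested next, to see whether any pair of autosomes drew closer or moved apart. No pair did beyond the spread between replicates. Of the 171 pairs 0 passed the FDR in edgeR (0%), 3 had an unadjusted p under 0.05 and DESeq2 called 0. The log2 changes ran from -0.05 to 0.03, and the smallest adjusted p was 0.938. The pair with the smallest p, chromosomes 3 and 19, held 0.329% and 0.323% of interchromosomal pairs at 3 h and 0.315% and 0.316% at 10 h, a log2 change of -0.05. The lowest count of a pair in any of these libraries was 74759, and the median SE of a change was 0.015 on the log2 scale.

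Where along the chromosomes the decay steepened was asked with the near-to-far ratio, the contacts of a 250 kb bin at 250 kb to 1 Mb over its contacts at 2 to 20 Mb. Distance was counted in steps between bins, so read pairs that join neighbouring bins count as 250 kb also where they lie closer. These contacts are the same read pairs as in the decay above, so the direction of the whole is not a separate result. Pooled over all bins the ratio was 0.873 and 0.872 at 3 h and 0.943 and 0.921 at 10 h. Summed over bins, each read pair is counted at both of its bins, so these sums are not shares of cis pairs. Near contacts summed in this way were 397587 and 395526 per 1000000 cis pairs at 3 h and 422753 and 420069 at 10 h. Far contacts, at 455288 and 453475 against 448215 and 456023, overlapped between the groups. The near contacts therefore carried the shift.

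The ratio rose in 2982 of 9302 bins (32.1%) and fell in 189 (2.03%), so that 34.1% passed the FDR. The 189 became 68 without 10 h replicate 2, 78 without 3 h replicate 2 and 114 without 10 h replicate 1. The ratio rose most often in gene-rich A chromatin. In A it was 1.10 and 1.11 at 3 h and 1.22 and 1.19 at 10 h, and 2081 of 4433 bins rose (46.9%). In B it was 0.622 and 0.638 at 3 h and 0.665 and 0.652 at 10 h, and 901 of 4869 bins rose (18.5%). The ratio in A over that in B was 1.77 and 1.74 at 3 h and 1.83 and 1.82 at 10 h (exact two-sided permutation p 0.333, the smallest possible). With the bins in 5 groups of equal size by the component, from deepest in B to deepest in A, the share that rose went through 14.1%, 17.5%, 29.7% and 43.9% to 55.1%. Among bins with no gene start it was 19.8%, with 1 start 28.6%, with 2 to 3 starts 37.4% and with 4 or more 53.0%.

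Autosomes differed as well, and gene-dense ones led. On chromosome 11 55.6% of bins rose and on chromosome 19 51.7%, against 19.6% on chromosome 3. The median log2 change was 0.11 in A and 0.06 in B. When every library was centred so that the median bin did not change, 1492 bins rose and 888 fell, with 1236 of the risen and 441 of the fallen in A and 256 and 447 in B. The count of bins called in all was 1589 without the first 10 h library and 2077 without the first 3 h library, and the share of A bins that rose was 26.0% to 38.6% without any of the 4 libraries, against 6.63% to 15.3% in B.

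**Figure D2:**
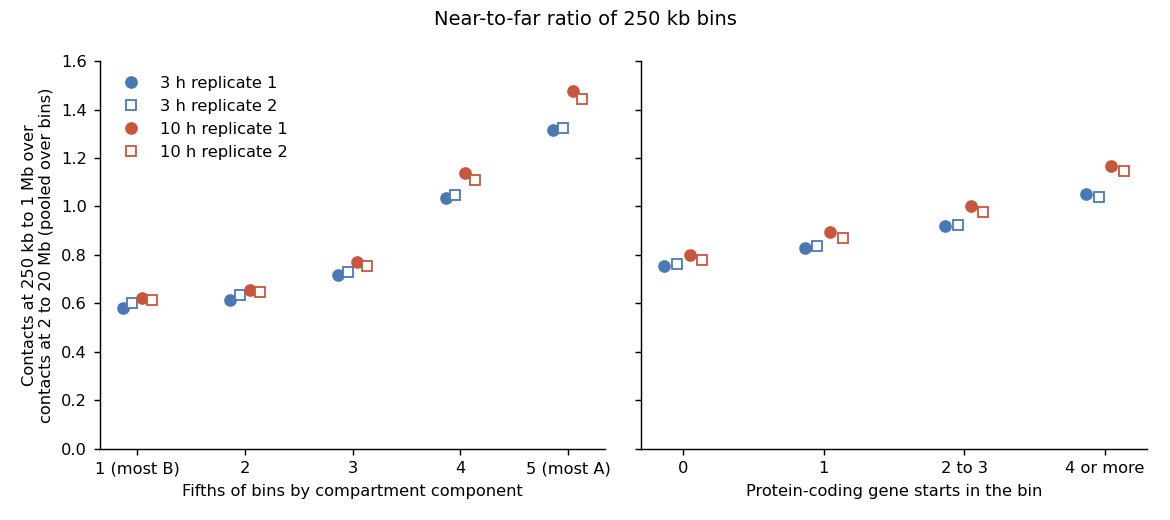
Near-to-far ratio pooled over 250 kb bins (vertical axis, a ratio without unit), by 5 equal groups of the compartment component on the left and by the number of protein-coding gene starts on the right, with 1 point a library. In every class both 10 h points lie above both 3 h points, and the gap is widest in the group deepest in A, at 1.32 and 1.33 against 1.48 and 1.44.

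The bin with the smallest p among those that rose lies at chr8:121750225-121999915 (GRCm38) and holds the starts of Klhdc4, of Slc7a5, a subunit of the transporter that brings large neutral amino acids into growing cells, and of Car5a, a mitochondrial carbonic anhydrase. Its ratio was 0.613 and 0.622 at 3 h and 0.888 and 0.878 at 10 h, a log2 change of 0.51 ± 0.05 (SE, adjusted p 4.48e-22 in edgeR). Its near contacts rose from 39.2 and 34.0 to 50.03 and 49.1 per 1000000 cis pairs, while its far contacts were 63.9 and 54.6 at 3 h and 56.4 and 55.9 at 10 h. The gain there was thus a gain of near contacts, and the libraries of the groups lay far apart.

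In the next bin, chr11:61249807-61500159, far contacts fell as well. It holds Aldh3a2, a fatty aldehyde dehydrogenase, and the drug and toxin exporters Slc47a1 and Slc47a2. The ratio was 1.17 and 1.19 at 3 h and 1.80 and 1.80 at 10 h (log2 change 0.61), with near contacts of 73.9 and 67.6 against 84.9 and 85.3 and far contacts of 63.3 and 56.9 against 47.2 and 47.4. The bin chr13:52749988-52999956 with Auh, an enzyme of leucine breakdown, and Nfil3, a bZIP repressor active in lymphocytes, went from 0.888 and 0.852 to 1.29 and 1.22 (0.53). A bin inside Dis3l2, an exoribonuclease gene, at chr1:86749788-87000093 went from 1.82 and 1.73 to 2.49 and 2.50 (0.50). The bin of Aspg and Kif26a at chr12:111999997-112249813 went from 0.864 and 0.813 to 1.16 and 1.143 (0.46).

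Among bins that fell, the first in rank was chr5:62749474-62999976 with Arap2, a regulator of small GTPases, and Dthd1. The ratio was 2.08 and 2.26 at 3 h and 1.51 and 1.63 at 10 h, a log2 change of -0.47 ± 0.05, with near contacts of 57.4 and 61.4 against 46.9 and 49.5 on the same scale. A bin inside Rasgef1b, which encodes an exchange factor for Ras-family proteins, at chr5:99250354-99500172 went from 1.15 and 1.21 to 0.903 and 0.918. A bin without a gene start at chr17:52250057-52500234 went from 1.25 and 1.24 to 0.975 and 0.965.

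The bin chr9:7750535-8000064 with Tmem123 and with Birc2 and Birc3, ubiquitin ligases of the NF-κB pathway, went from 2.51 and 2.73 to 2.05 and 2.22, and that of Lyst, a regulator of lysosome traffic, at chr13:13501042-13750005 from 1.49 and 1.49 to 1.27 and 1.19. All 10 bins passed the FDR without each of the 4 libraries in turn. They were picked for their small p among bins whose libraries do not overlap, so their sizes and the gap between the groups are a description.

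**Figure D3:**
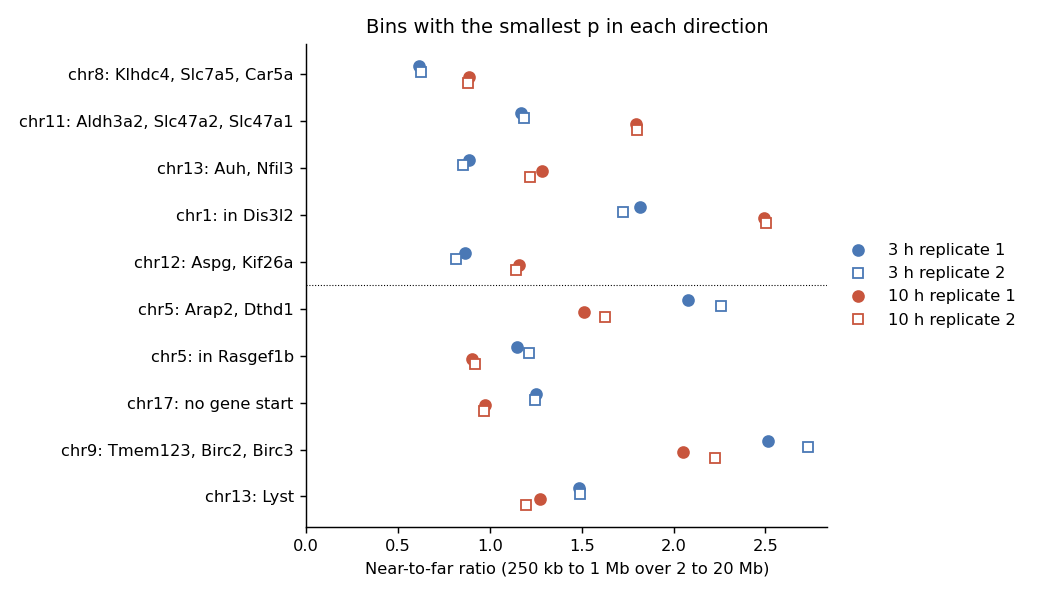
Near-to-far ratio (horizontal axis) of the 5 bins with the smallest p in each direction, 1 point a library, with bins that rose above the dotted line and bins that fell below it. Bins were chosen among those whose 3 h and 10 h libraries do not overlap. The ratio was 0.613 and 0.622 against 0.888 and 0.878 at Slc7a5 and 2.08 and 2.26 against 1.51 and 1.63 at Arap2.

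Genes of the activation programme were then looked up by the bin in which they start. Of all 5668 bins with a gene start 39.9% rose and 1.80% fell, with a median log2 change of 0.10. Of all A bins 46.9% rose and 2.80% fell, with a median of 0.11. The lists are to be read against both sets of values. Each of them lies wholly in A but that of ribosome biogenesis, with 23 of 24 genes. Bins with a gene start were not counted within A alone. Of 20 immediate early factors, which answer a stimulus without new protein synthesis, 10 rose and 0 fell, with a median of 0.13. Fos went from 1.961 and 2.00 to 2.49 and 2.48 (log2 change 0.33, adjusted p 4.86e-07 in edgeR), and Dusp1, a phosphatase that limits MAP kinase signalling, from 1.55 and 1.48 to 1.93 and 1.88 (0.33). Egr3, Klf6 and Nr4a1 rose by 0.25, 0.24 and 0.23. Myc, the driver of growth, did not pass, at 3.04 and 3.09 against 2.88 and 2.90 (-0.09, adjusted p 0.329).

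The NF-κB list was the only one of the 9 activation lists with a median below 0. Of its 15 subunits, inhibitors and kinases 5 rose and 3 fell, with a median of -0.06. Calls of list genes are given for the fit with all 8 libraries only, and calls of fallen bins depend on single libraries, as said above. Rel, the c-Rel subunit of NF-κB, went from 1.92 and 2.03 to 1.70 and 1.65 (-0.24, adjusted p 0.00038), and Ikbkb, a kinase of the pathway, and its signalling adaptor Traf1 each fell by 0.13. Nfkbib and Nfkbid, inhibitors of NF-κB, rose by 0.23 and 0.21, and the kinase Chuk by 0.19. Of 17 genes of LPS recognition and Toll-like signalling 5 rose and 0 fell (median 0.09), Tlr4, the LPS receptor, among them at 0.570 and 0.588 against 0.676 and 0.638.

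Lists of cell growth lay close to the background. Of 24 genes of ribosome biogenesis 12 rose and 0 fell (median 0.12), with Polr1e, a subunit of RNA polymerase I, from 2.99 and 2.78 to 3.57 and 3.94 (0.38) and Pes1 from 1.63 and 1.61 to 1.96 and 2.03 (0.30). Of 27 genes of glycolysis, nucleotide and one-carbon metabolism 10 rose and 0 fell (median 0.10), led by Slc7a5 and by Shmt1, a serine hydroxymethyltransferase, which went from 1.20 and 1.11 to 1.67 and 1.6 (0.51). Eno1, the glycolytic enolase, rose by 0.36. Tyms, the thymidylate synthase, went from 0.947 and 0.976 to 1.24 and 1.20 (0.34), and the cytokine gene Il6 starts in the same bin and so has the same values.

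Of 22 B cell identity and plasma cell factors 8 rose and 0 fell (median 0.09). Pax5, which maintains B cell identity, went from 3.64 and 3.83 to 4.63 and 4.38 (0.27), and Bach2, which holds back plasma cell fate, did not pass, at 3.43 and 3.61 against 4.0 and 3.76 (0.14, adjusted p 0.0543). Of 23 activation surface genes and cytokines 8 rose and 0 fell (median 0.07), with Tnfrsf13b, the receptor TACI for the survival factors BAFF and APRIL, from 1.30 and 1.27 to 1.91 and 1.86 (0.55). Of 20 G1 regulators 9 rose and 1 fell (median 0.10). Rbl1, a relative of the retinoblastoma protein, rose by 0.31 and Ccnd3, cyclin D3, by 0.27, while Cdk6, the kinase partner of D cyclins, went from 3.22 and 3.46 to 2.87 and 2.78 (-0.25).

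Of 27 genes of cohesin, condensin and nuclear architecture 8 rose and 1 fell (median 0.05). Lbr, a receptor of the inner nuclear membrane, rose by 0.27, Ctcf by 0.26 and the cohesin regulator Pds5b by 0.26, and Satb1, a chromatin organiser of lymphocytes, fell by 0.21. Among marker genes of cell types 5 of 10 for B cells, 5 of 8 for T cells, 4 of 7 for myeloid cells and 4 of 8 for liver, heart and neurons rose. The rise was thus not limited to genes of B cells.

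Compartments were compared by the first principal component of the cis contact map at 100 kb, scaled to unit SD, with A above 0. The component hardly changed overall. Its correlation over bins was 0.998 between the 3 h libraries, 0.999 between the 10 h libraries and 0.997 to 0.998 across the groups. Of 23786 bins 993 passed the FDR in limma (4.17%), 516 towards A (2.17%) and 477 towards B (2.01%), with median sizes of 0.16 and 0.15 SD. Sign changes that all 4 libraries shared were seen in 48 bins that left B and 55 that left A, and 26 of each passed the FDR.

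By the mean component of all 8 libraries, 421 of the 516 bins towards A and 275 of the 477 towards B lay in A, against 11232 of all 23786 bins tested. A gene start was held by 30.8% and 49.5% of them, against 41.7% of all bins tested. Bins near the border between compartments, within 0.5 SD of 0, made up 36.6% of the bins towards A and 44.7% of those towards B, against 16.5% of all. Single libraries weigh heavily here. Leaving out 10 h replicate 1 gave 122 bins (74 towards A), 10 h replicate 2 gave 122 (59 towards A), 3 h replicate 1 gave 420 (161 towards A), 3 h replicate 2 gave 1634 (1036 towards A) and either 33 h imminent division library 599, so the split between directions is not settled.

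The longest run of adjacent bins towards A covered chr2:45300006-47099887, 18 bins without a protein-coding gene start. Its mean component was 0.03 and 0.07 at 3 h and 0.33 and 0.32 at 10 h (smallest adjusted p of a bin 0.000968 in limma). A region near the border at 3 h thus lay in A in both 10 h libraries. The run chr10:15899715-17099805, 12 bins without a gene start, went from 0.19 and 0.21 to 0.38 and 0.39. Its bin with the smallest p lost its call without the second 10 h library. The run chr12:33499809-34399706 holds the bHLH factors Ferd3l and Twist1 and a part of Hdac9, a histone deacetylase gene, and went from 0.07 and 0.12 to 0.32 and 0.35.

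Chromosomes 10 and 6 held the other named runs towards A. At chr10:83599584-84400772, with Appl2 and the kinase gene Nuak1, the component went from 0.93 and 0.99 to 1.18 and 1.21, deep in A at both times. The run chr6:33400025-34000110 overlaps Exoc4, a gene of the exocyst, which tethers secretory vesicles. It went from 0.59 and 0.68 to 1.03 and 1.01, the widest gap of these runs.

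Towards B the longest run was chr4:54000371-54999877 with Zfp462, a zinc finger gene, from -0.17 and -0.13 to -0.33 and -0.36. The run chr11:43700269-44499823 holds Ttc1, the adrenergic receptor Adra1b and Il12b, the shared subunit of interleukins 12 and 23, and went from -0.04 and -0.01 to -0.19 and -0.20. At chr9:89099925-89599722, with Bcl2a1b, a survival gene of the Bcl-2 family, and Mthfs, a folate enzyme, it went from 0.01 and -0.01 to -0.29 and -0.28. These 3 regions lay in B or at the border at 3 h and deeper in B at 10 h.

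The runs chr1:80800278-81299924 with Nyap2, from 0.06 and 0.07 to -0.18 and -0.17, and chr17:52200010-52700102 with Kcnh8, a potassium channel gene, from 0.15 and 0.16 to -0.08 and -0.06, crossed from A to B. Only the bin with the smallest p of each named run was followed when libraries were left out. Apart from that of the chromosome 10 run without a gene start, each such bin kept its call without each of the 4 libraries. How much of each run would remain was not tested.

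**Figure D4:**
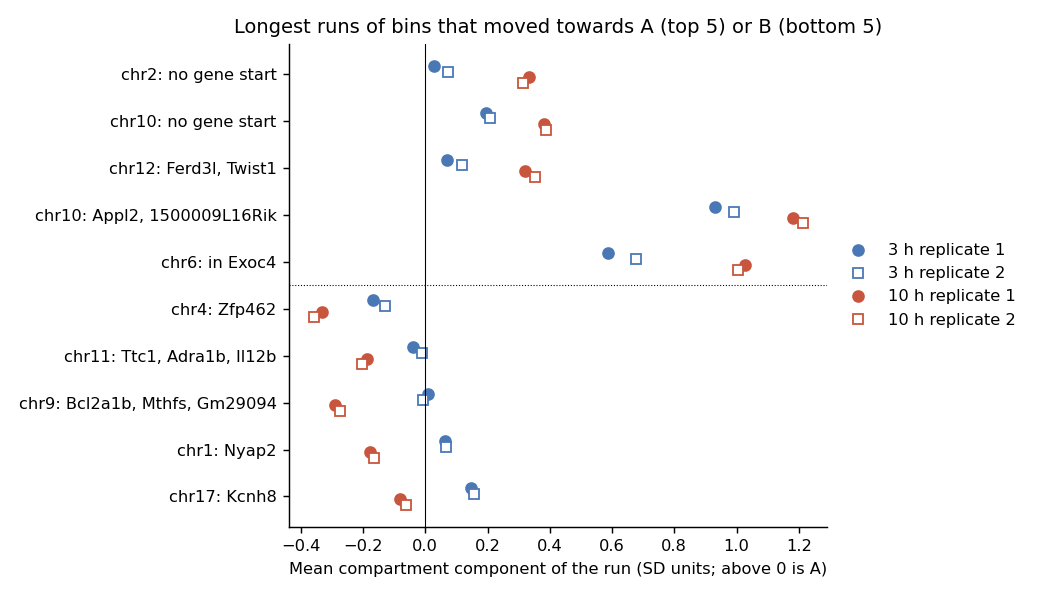
Mean compartment component, in SD units, of the 5 longest runs of called bins in each direction, 1 point a library, with runs towards A above the dotted line. Positive values are A. The chromosome 2 run moved from 0.03 and 0.07 to 0.33 and 0.32, and the runs on chromosomes 1 and 17 changed sign.

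Few genes of the lists changed their component. Their calls are given for the fit with all 8 libraries only, and component calls rest heavily on single libraries, as said above. Tlr4 moved towards A, from -0.09 and 0.00 at 3 h to 0.19 and 0.22 at 10 h (change 0.25, adjusted p 0.00775 in limma), as did the shared bin of Tyms and Il6, from 1.10 and 1.16 to 1.28 and 1.31 (0.17). Towards B went Npm1, a nucleolar chaperone, from 0.18 and 0.18 to -0.08 and -0.02 (adjusted p 0.00956), and Smc3, a core subunit of cohesin, from 0.86 and 0.88 to 0.69 and 0.64 (0.0122). Mthfd1l, Taf1b and Odc1 also moved towards B, by 0.19, 0.17 and 0.14 SD. No gene of the immediate early, NF-κB, B cell identity and G1 lists passed. Of all 9923 bins with a gene start 159 moved towards A and 236 (2.38%) towards B, so counts this low are near that background.

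Contacts within and between compartments were then counted at each distance, to ask whether A and B regions met more or less often. No change passed the FDR. In cis 0 of 456 features passed (0%), 6 had an unadjusted p under 0.05 and DESeq2 called 0, and in a fit on the 4 libraries alone 2 passed. Between autosomes 0 of 513 passed (0%), 2 had an unadjusted p under 0.05 and DESeq2 called 0. The share of B-B contacts between autosomes was 25.5% and 27.8% at 3 h and 28.0% and 28.1% at 10 h. It was higher at 10 h on all 171 pairs of autosomes, with a median log2 change of 0.08, but the median SE was 0.06 and the smallest adjusted p 0.761.

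The share of A-A contacts between autosomes was 47.9% and 46.0% at 3 h and 45.8% and 45.4% at 10 h, lower on all 171 pairs with a median log2 change of -0.04. In cis at 800 kb to 1.6 Mb A-A contacts made up 47.2% and 44.1% at 3 h and 46.9% and 47.0% at 10 h. At 25.6 to 51.2 Mb B-B contacts made up 36.9% and 39.6% at 3 h and 39.5% and 39.6% at 10 h. Between autosomes and at 25.6 to 51.2 Mb 3 h replicate 2 lay closer to the 10 h libraries than to its own replicate, and at 800 kb to 1.6 Mb it was 3 h replicate 1 that did. Pairs of autosomes share these libraries, so a like sign on all of them is no count of replicates.

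Insulation asks how many contacts cross a domain border against those that stay in its flanks. At 2138 minima of the insulation score, with windows of 500 kb, the crossing over flank ratio was 0.222 and 0.217 at 3 h and 0.223 and 0.231 at 10 h. Crossing rose at 355 minima (16.6%) and fell at 48 (2.25%), so that 18.8% passed the FDR, and the median log2 change was 0.04. From the shallowest to the deepest group of minima, in 4 groups of equal size, 97, 97, 95 and 66 rose and 5, 6, 18 and 19 fell. A crossing contact is on average longer than a flank contact, so the ratio takes in the change of decay described above.

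When every library was centred so that the median minimum did not change, 258 rose and 254 fell, a balance that centring itself sets. The counts that follow, with single libraries left out, are without centring. The count was 126 when 3 h replicate 2 was left out and 134 when 10 h replicate 2 was. The 48 minima with less crossing became 16 without 10 h replicate 1, 21 without 3 h replicate 2, 24 without 3 h replicate 1 and 29 without 10 h replicate 2. Without centring, the count called in either direction was 403 with windows of 500 kb, 100 with 250 kb and 613 with 1 Mb.

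Crossing rose most clearly at chr11:78950034, beside the starts of Nos2, the inducible nitric oxide synthase, and Lgals9, galectin-9. The ratio was 0.258 and 0.255 at 3 h and 0.322 and 0.328 at 10 h, a log2 change of 0.35 ± 0.04 (adjusted p 1.63e-11 in edgeR). At chr11:84049828, beside the phosphatase gene Dusp14, it was 0.209 and 0.189 against 0.255 and 0.257 (0.37). At chr8:106450156, beside the zinc finger gene Zfp90, it was 0.201 and 0.191 against 0.241 and 0.259 (0.36). More contacts crossed these borders in both 10 h libraries, which the choice of named minima required.

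At chr8:122249380, beside Zfpm1, a cofactor of GATA factors, the ratio was 0.148 and 0.157 at 3 h and 0.188 and 0.211 at 10 h (0.39), and at chr15:97150021, without a gene start, 0.158 and 0.163 against 0.199 and 0.213 (0.36). Crossing fell at chr4:32599869, beside Gja10 and Casp8ap2 and near Bach2, from 0.278 and 0.268 to 0.218 and 0.233 (-0.27, adjusted p 2.13e-07 in edgeR). It fell at chr1:80750194, beside Dock10, an activator of small GTPases, from 0.317 and 0.296 to 0.25 and 0.258 (-0.26).

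At chr2:70650270, beside the Golgi gene Gorasp2 and near the glutamate decarboxylase gene Gad1, the ratio went from 0.261 and 0.249 to 0.206 and 0.223 (-0.25). At chr5:62499999 it went from 0.240 and 0.241 to 0.185 and 0.204 (-0.30) and at chr10:25600036 from 0.240 and 0.220 to 0.184 and 0.196 (-0.26), both without a gene start. All 10 kept their calls without each of the 4 libraries and after centring. Windows of 250 kb ended the calls at chr15:97150021, chr1:80750194, chr5:62499999 and chr10:25600036, and windows of 1 Mb those at chr4:32599869 and chr10:25600036.

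Borders are known for the CTCF motif, and its core was looked up in the genome sequence around each minimum. The letters CCA, any 2 bases, AG, any 2 bases and GGCGC, in this order, were searched on both strands of GRCm38, which gave 5027 matches on the autosomes, and windows of 100 kb centred on the borders were scored for at least 1 match. A match was found at 27.7% of minima against 16.6% of all borders between kept bins. It was found at 149 of the 355 minima where crossing rose (42.0%), at 6 of the 48 where it fell (12.5%) and at 25.2% of those not called. The minima where crossing rose lay in A in 325 of 355 cases, against 1313 of all 2138 minima, and matches are more common in A. Within A the shares were 43.4%, 23.1% and 32.6% in the same order, and within B 26.7%, 0% of 22 and 15.9%. After centring they were 44.2%, 18.1% and 26.6%. These shares are descriptions, and a match is not a bound site. Of the 10 named minima 3 had a match, and their sequences are shown to give the motif as found, with the searched letters in capitals and 6 neighbouring bases on each side (GRCm38, coordinates of the capitals, RefSeq sequence).
chr15:97188032-97188045, minus strand, crossing rose: acatacCCACTAGATGGCGCactaac
chr8:106433139-106433152, plus strand, near Zfp90, crossing rose: ttgtgaCCACCAGGGGGCGCtggcgc
chr8:106446530-106446543, plus strand, near Zfp90, crossing rose: cagaggCCAGAAGGGGGCGCtggatc
chr2:70620425-70620438, minus strand, near Gorasp2, crossing fell: gtttgcCCACTAGGTGGCGCgattgg
chr2:70632180-70632193, minus strand, near Gorasp2, crossing fell: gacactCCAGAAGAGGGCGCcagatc

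Both matches near Zfp90 point the same way along the chromosome, as do both near Gorasp2, and crossing changed in opposite directions at these 2 borders. Borders come from bins rebuilt here, whose chromosome ends met the drop of counts to within 1 bin, so no distance from a match to a border is given, and the shares above carry the same limit.

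Single contacts were tested as differential interactions (DIs) between bins of 250 kb, 500 kb and 1 Mb. The median SE of a tested contact was 0.31, 0.18 and 0.11 on the log2 scale. Offsets set the typical bin pair of each abundance near no change, so stronger and weaker are relative to it. At 250 kb 515 contacts were strengthened (0.0321%) and 218 weakened (0.0136%) of 1603857 tested (0.0457% called), at 500 kb 673 and 707 of 514050 (0.268%) and at 1 Mb 381 and 1152 of 140938 (1.09%). In the edgeR fit strengthened contacts spanned shorter distances than weakened ones. The median distance was 1.00 Mb for strengthened and 1.75 Mb for weakened contacts at 250 kb, 2.00 and 14.5 Mb at 500 kb, and 3.00 and 23.0 Mb at 1 Mb. Of the 218 weakened contacts at 250 kb 132 lay within 3.2 Mb. In the DESeq2 fit the medians were 0.75 and 0.75 Mb at 250 kb, 1.5 and 1.0 Mb at 500 kb and 2.0 and 4.0 Mb at 1 Mb, so the order did not hold at 250 kb and turned at 500 kb. At 1 Mb 3.54% of bin pairs 1.5 to 3.2 Mb apart were strengthened and 0.895% weakened, and of those 12.8 to 51.2 Mb apart 0.0861% were strengthened and 1.06% weakened. With offsets per distance class, 340 contacts within 3.2 Mb were strengthened and 118 weakened at 250 kb, 312 and 172 at 500 kb and 122 and 108 at 1 Mb. The main offsets gave 472 and 132, 468 and 142, and 209 and 76. Beyond 10 Mb at 1 Mb offsets per distance class gave 123 and 778, and the main ones 106 and 863. The main offsets were split by distance at 1.5 Mb alone. How much of the change of decay stays in these counts was not tested.

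Sizes were modest. The median log2 change of strengthened contacts was 0.59 at 250 kb, 0.53 at 500 kb and 0.40 at 1 Mb, and that of weakened ones -0.65, -0.69 and -0.46. Of the 619 contacts called at 250 kb that join different 1 Mb bins, 315 (50.9%) lay in a 1 Mb bin pair called in the same direction. On chromosome 11, 73 of 74056 tested contacts were strengthened at 250 kb, against 0.0321% over all autosomes. At 1 Mb 195 of its 6120 were weakened, against 0.817% over all. Chromosome 2 held 180 weakened contacts at 1 Mb, but of 12842 tested. That share was lower than on chromosomes 12, 16 and 19, with 87 of 6013, 77 of 4121 and 24 of 1648.

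**Figure D5:**
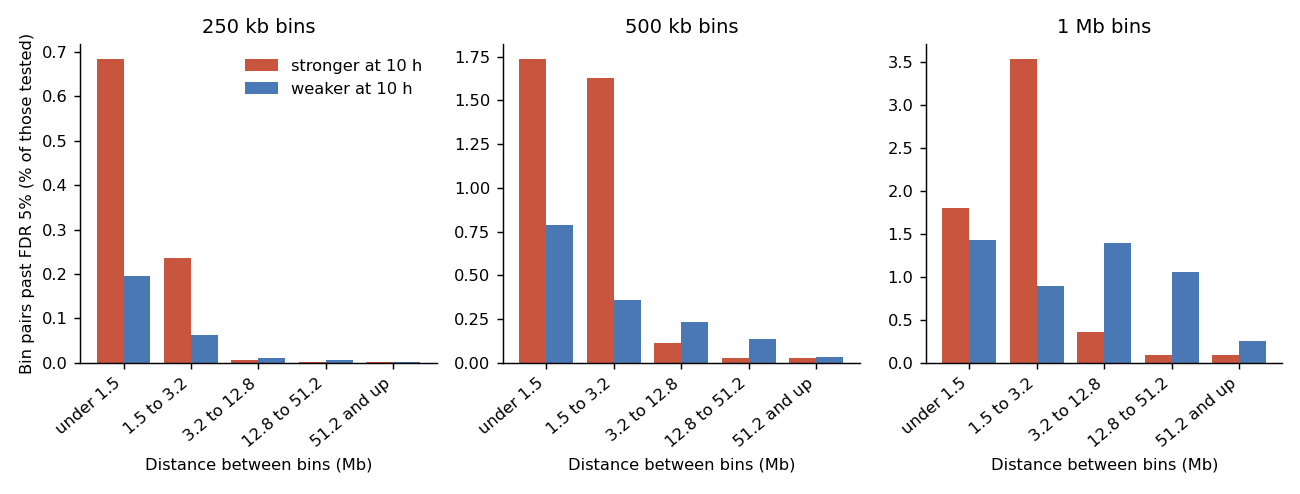
Share of tested bin pairs that passed the FDR (vertical axis, percent, with its own scale in each panel) by distance between the bins in Mb, for strengthened and weakened contacts at 3 bin sizes. In this edgeR fit with loess offsets, strengthened contacts lead below 3.2 Mb at every size, with 3.54% against 0.895% at 1.5 to 3.2 Mb in 1 Mb bins. Weakened ones lead from 3.2 to 51.2 Mb.

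Compartments of the partners differed between the sets. Of contacts strengthened within 3.2 Mb at 250 kb, 78.8% joined A with A, against 55.3% of weakened ones and 30.4% of those tested. Weakened contacts beyond 10 Mb at 1 Mb joined B with B in 1.04% of 863 cases, against 31.5% of those tested and 19.8% of the 106 strengthened ones. With the coverage of both bins in the offsets the order of the far B-B shares turned, to 18.6% of 2011 weakened and 6.54% of 1254 strengthened contacts at 1 Mb. That of the near A-A shares at 250 kb held, with 83.5% of strengthened and 22.8% of 601 weakened contacts. Called contacts held more read pairs than the rest, with a median count of 286.75 a library for those strengthened within 3.2 Mb against 126.5 for those tested, and the part of depth in these shares was not tested.

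The counts depend on the libraries and the scaling. At 250 kb leaving out 10 h replicate 1 gave 204 contacts, 10 h replicate 2 gave 41 and 3 h replicate 2 gave 88, of which 31 were strengthened, and 3 h replicate 1 gave 876 strengthened and 200 weakened. At 500 kb the same omissions gave 281, 84 and 590, of which 193, 57 and 197 were strengthened, and 3 h replicate 1 gave 1014 strengthened and 425 weakened. At 1 Mb 10 h replicate 1 gave 165, 10 h replicate 2 gave 74 and 3 h replicate 1 gave 974, and the 33 h imminent division libraries gave 2770 and 2749. At 500 kb and 1 Mb the compartments of contacts strengthened beyond 10 Mb rest on every one of the libraries compared. Their B-B share fell without 10 h replicate 1, 10 h replicate 2 or 3 h replicate 1 and rose without 3 h replicate 2. In the fits without it B-B pairs were 0.390% of the far weakened contacts at 1 Mb, and A-A pairs were 73.1% of the 26 strengthened and 57.5% of the 40 weakened near contacts at 250 kb. At the larger sizes this order turned without that library, to 38.6% of strengthened and 54.2% of weakened near contacts at 500 kb and 19.8% and 51.5% at 1 Mb, against 60.3% and 39.4% and 43.1% and 34.2% with all libraries. In the DESeq2 fit it turned at 1 Mb as well, with 45.6% and 51.9%.

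With offsets from TMM factors, which leave the general change of decay in, 1887 contacts were strengthened and 251 weakened at 250 kb, 1818 and 955 at 500 kb and 940 and 1472 at 1 Mb. With library size alone they were 1330 and 309, 1348 and 1342, and 703 and 2244. In the DESeq2 fit 165 and 55, 227 and 96, and 122 and 57 passed, so that at 1 Mb the majority turned to strengthened contacts.

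The strengthened contact with the smallest p joined chr13:51999252-52250321, without a gene start, to chr13:53250059-53499986, with the Wnt receptor kinase Ror2, Sptlc1, an enzyme of sphingolipid synthesis, and the homeobox gene Msx2. It held 69 and 102 read pairs at 3 h and 212 and 296 at 10 h, or 131 and 94.5 against 273 and 288 after normalization, a log2 change of 1.39 ± 0.14 (adjusted p 7.93e-15 in edgeR). The bin of Nfil3, whose near-to-far ratio rose, lies between its anchors.

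On chromosome 1, chr1:180749897-181000035 with the histone gene H3f3a, Sde2 and Lefty2 met chr1:181499820-181750425 with Ccdc121 and Dnah14 more often, with normalized counts of 306 and 217 at 3 h and 473 and 521 at 10 h (0.99). On chromosome 3, chr3:86999684-87249594 with the adhesion gene Kirrel met chr3:88000014-88250039 with Bcan and Hapln2, genes of the extracellular matrix, and Gpatch4, at 261 and 239 against 431 and 498 (0.92). Named contacts were chosen among those whose 3 h and 10 h libraries do not overlap, so the gap between the groups is no separate result.

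Farther along chromosome 3, chr3:135750160-136000053 with Slc39a8, a zinc and manganese importer, met chr3:136750172-137001050, which overlaps the calcineurin gene Ppp3ca. Normalized counts were 957 and 819 against 1245 and 1301 (0.54). On chromosome 11, chr11:100249793-100499856 with the keratin genes Krt17 and Krt42 and the translation initiation gene Eif1 met chr11:100750076-100999961 with Kcnh4, Hcrt and Ghdc at 1052 and 872 against 1351 and 1442 (0.56).

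The weakened contact with the smallest p joined chr17:51000060-51249991, with Tbc1d5, a regulator of Rab GTPases, to chr17:52250057-52500234, the bin without a gene start whose near-to-far ratio fell, and Satb1 starts between them. It held 439 and 716 read pairs at 3 h and 327 and 430 at 10 h, or 786 and 655 against 402 and 404 after normalization (-0.82 ± 0.09, adjusted p 2.14e-12). A bin inside Dock10, chr1:80499835-80750194, met chr1:81000107-81250089 with Nyap2 less often, at 686 and 661 against 422 and 409 (-0.69). A bin inside Bach2, chr4:32250016-32500088, met chr4:32749917-32999876 with Lyrm2, Ankrd6 and Rragd, a GTPase of nutrient sensing, at 773 and 740 against 473 and 509 (-0.62).

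At chr5:61999761-62250152 and chr5:62749474-62999976, the latter with Arap2 and Dthd1, normalized counts were 266 and 293 at 3 h and 136 and 154 at 10 h (-0.95). Near Myc, chr15:61999844-62249863 met chr15:63500035-63750523 at 1636 and 1746 against 1196 and 1167 (-0.52). The first of these bins begins close to the Myc start. With positions known to within 1 bin of 50 kb, Myc may lie inside it. This contact was not called in edgeR with TMM factors (-0.23, adjusted p 0.386) or with library size alone (-0.26, adjusted p 0.215). All 10 contacts kept their calls without each of the 4 libraries.

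Some bins gathered many DIs. The 1 Mb bin chr2:128000158-129000185, with Bcl2l11, which encodes the pro-apoptotic protein BIM, Anapc1, a subunit of the anaphase-promoting complex, and the receptor kinase Mertk, had 43 weakened and 5 strengthened contacts of 129 tested, the latter at a median distance of 39.0 Mb. All its normalized contacts beyond 10 Mb summed to 34657 and 31735 at 3 h and 29541 and 29107 at 10 h. The bin chr11:76999306-78000174, with Nsrp1, the cofilin phosphatase Ssh2 and Git1, had 35 of 85, and all of its 65 contacts beyond 10 Mb were lower at 10 h. Their sum was 24889 and 23161 at 3 h and 19311 and 19266 at 10 h, so the loss was spread over the chromosome and not held by a few partners.

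Further bins of this kind held Zeb2, a transcription factor of immune cells (chr2:45000105-46000121, 31 of 127), olfactory receptor genes and the immunoglobulin lambda locus (chr16:19000065-19999872, 31 of 65), Tnfrsf13b (chr11:60999846-62000245, 29 of 101) and Mdm4, an inhibitor of p53 (chr1:133000039-133999960, 22 of 118). The near-to-far ratio rose in 4 of 4 of the 250 kb bins inside each, except in the Zeb2 bin, where it rose in 3 of 4. The measures share the far read pairs. These counts depend on the libraries and the test. In the Bcl2l11 bin 11 weakened contacts were called without 10 h replicate 1, 8 without 10 h replicate 2, 28 without 3 h replicate 1 and 39 without 3 h replicate 2, and DESeq2 called 0. Its 5 strengthened contacts became 1 without either 10 h library, 3 without 3 h replicate 1, 2 without 3 h replicate 2 and 1 with DESeq2. In the other 5 bins 3 to 7 were called without 10 h replicate 1, 0 to 5 without 10 h replicate 2, 12 to 22 without 3 h replicate 1, 13 to 35 without 3 h replicate 2 and 0 to 3 with DESeq2.

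Strengthened contacts gathered in some bins as well. At 250 kb the bin of Nfkb1, which encodes the NF-κB subunit p50, at chr3:135499703-135750163 and that of Mcur1 and Rnf182 at chr13:43500621-43750071 had 6 strengthened contacts each. The summed normalized count of the 6 Nfkb1 contacts was 910 and 836 at 3 h and 1266 and 1374 at 10 h. In the Nfkb1 bin 0 strengthened contacts were called without 10 h replicate 2 or 3 h replicate 2, 3 without 10 h replicate 1 and 2 with DESeq2. In the Mcur1 bin 0 were called without 10 h replicate 2, 1 without 3 h replicate 2 or 10 h replicate 1 and 2 with DESeq2.

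Larger bins gathered more. The 500 kb bin of Lyst, a regulator of lysosomal trafficking, at chr13:13501042-14000330 had 13 strengthened contacts of 220 tested, the 1 Mb bin of Clint1 at chr11:44999979-45999929 had 11 of 110 and that of Foxn3 at chr12:99000073-99999810 had 10 of 76. The near-to-far ratio fell in 2 of 2, 4 of 4 and 3 of 4 of the 250 kb bins inside them. This was not so in every bin with many strengthened contacts. Among the 250 kb bins with most of them the ratio rose at chr10:43998938-44249637, chr11:100249793-100499856, chr2:165500394-165749851, chr3:135750160-136000053 and chr4:141249950-141500260. It fell in the Mcur1 bin and at chr13:13750002-14000330 and did neither in the Nfkb1 bin. The ratio rose in 2 of 2 in the 500 kb bin chr6:33499996-34000110, which had 14, and in 4 of 4 in the Bcl2l11 bin. It rose in 1 of 4 and fell in 0 in the 1 Mb bins chr7:18999846-20000001 and chr17:56000102-56999995, with 7 and 6 strengthened contacts, and 0 rose or fell in the 500 kb bins chr19:28999986-29500343 and chr6:108500016-109000106, with 8 and 7. The counts of the Lyst, Clint1 and Foxn3 bins became 3, 1 and 2 without 10 h replicate 2, 4, 2 and 5 without 3 h replicate 2, 8, 5 and 4 without 10 h replicate 1 and 3, 2 and 1 with DESeq2, and that of the Foxn3 bin became 16 without 3 h replicate 1.

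Of the 15 NF-κB genes 7 start in a bin with a strengthened contact and 1 in a bin with a weakened one, against 10.7% and 3.87% of the 5864 bins with a gene start tested at 250 kb. Without 10 h replicate 2 or 3 h replicate 2 0 of the 15 had a strengthened contact, against 0.631% and 0.682% of these bins, and 4 had one without 10 h replicate 1 (3.99%) and 2 with DESeq2 (4.06%). The counts of the other lists rest on the same contacts.

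For the other lists the number of genes in a bin with a strengthened contact was 7 of 23 activation surface genes and cytokines, 6 of 27 genes of nuclear architecture, 5 of 20 immediate early factors, 5 of 24 ribosome genes, 4 of 20 G1 regulators, 3 of 17 LPS genes, 3 of 27 metabolic genes and 3 of 22 B cell identity factors. For cell type markers it was 2 of 10 for B cells, 2 of 8 for T cells, 2 of 7 for myeloid cells and 1 of 8 for liver, heart and neurons. The background is again the 10.7% of bins with a gene start that had a strengthened contact. Each count fell without 10 h replicate 2 and without 3 h replicate 2, as did the background, and none fell without 3 h replicate 1. With DESeq2 the background was 4.06%. The counts were then 5, 4, 4, 2, 0, 0, 3 and 2 in the order given, and 1, 2, 1 and 0 for the markers. Weakened contacts touched 0 to 2 genes of each of these lists. Slc7a5 had 4 strengthened contacts, Rel 3 and Traf1 2, and the near-to-far ratio of the last 2 fell.

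Several places turned up in more than 1 readout. Around chr17:52250057 a contact and the near-to-far ratio fell and the component moved towards B. Around chr5:62499999 a contact, the near-to-far ratio and the crossing of a border fell. At Dock10 and Nyap2 on chromosome 1 a contact and the crossing fell and the component moved towards B. At Bach2 a contact and the crossing of a border near the gene fell. On chromosome 2 the gene-free run towards A overlaps the Zeb2 bin with its weakened far contacts. At Exoc4 on chromosome 6 the 500 kb bin chr6:33499996-34000110 had 16 weakened and 14 strengthened contacts, at median distances of 10.5 and 44.5 Mb, and the component moved towards A. The 16 became 3 without 10 h replicate 1, 1 without 10 h replicate 2, 9 without 3 h replicate 1, 5 without 3 h replicate 2 and 0 with DESeq2. The 14 became 2 without either 10 h library, 0 without 3 h replicate 2 and 2 with DESeq2. These readouts rest on overlapping read pairs of the same 4 libraries.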

How the data were processed

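In situ Hi-C (MboI) read pairs were aligned to mm10 by the authors with diffHic (cutadapt, bowtie2), duplicates marked with Picard and dangling ends removed. The authors deposited raw counts per pair of 50 kb bins, unscaled, 1 matrix a library. Bins were rebuilt from MboI sites of GRCm38, with positions known to within 1 bin of 50 kb, and genes are protein-coding genes of its GENCODE annotation. Autosomal bins with over 10% undetermined sequence or coverage over 4-fold from the median were left out (749 of 48088). Depth was 88703088 to 170436624 read pairs in the 4 libraries compared.

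Tests used all 8 libraries in a one-way layout with edgeR 4.0.16 (quasi-likelihood, robust) or limma 3.58.1 in R 4.3.3 and a Benjamini-Hochberg FDR of 5%, with DESeq2 1.42.0 as an alternative. Contacts needed a summed count of 10 and an abundance over 4-fold the interchromosomal background, and had loess offsets split at 1.5 Mb. Scripts were tested on simulated data. P-values of these fits measure the spread between these samples, which the methods call biological replicates. The fits share that spread over features, so a very small p does not rest on the libraries of its own feature alone. Members, lists and tests were chosen with earlier results of these data known. Named features are the 5 with the smallest p in each direction whose libraries do not overlap (for the component, the longest runs), merged within 500 kb, with list genes that passed. Replicate numbers were not used as pairs. Alternatives were other normalizations, windows, bin sizes, filters, thinning and leaving out each library. One result is not reported here.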

Additional observations from a re-analysis of the deposited data

How the results depend on the processing

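None of the 40 named features changed sign under the alternatives run, with each component run judged by its bin with the smallest p. Their 9 lost calls stand in the report. With all 8 libraries left out in turn, the number called ran from 69 to 119 for the decay, 1589 to 3698 for the near-to-far ratio, 122 to 1634 for the component, 126 to 394 for insulation, 41 to 1076 for contacts at 250 kb, 84 to 1947 at 500 kb and 74 to 2770 at 1 Mb, and stayed at 0 for contacts between chromosomes and between compartments. Near-to-far bins of 500 kb gave 2061 calls of 4567. The component gave 1657 calls after quantile normalization and 289 on the 4 libraries alone, where compartment contacts in cis gave 2 and contacts at 1 Mb 2592. Insulation gave 265 calls with DESeq2, 159 among the deeper minima alone, 613 with windows of 1 Mb and 100 with 250 kb. DESeq2 gave 220, 323 and 179 contacts at 250 kb, 500 kb and 1 Mb, TMM factors 2138, 2773 and 2412, library size alone 1639, 2690 and 2947, and offsets with the coverage of both bins taken out 3922, 5974 and 5801. Thinning to 88703088 read pairs gave 321 contacts at 250 kb and 716 at 500 kb. The cause of these differences was not tested.

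The replicate numbers did not pair the libraries, with a correlation of 0.03 between the deviations of the 3 h and 10 h libraries. With the replicate number as a block 108 decay features, 3120 near-to-far bins, 797 component bins, 327 minima, 483 contacts at 250 kb, 940 at 500 kb and 973 at 1 Mb were called, and 0 between chromosomes or compartments. Depth sets what can be seen at fine scale, since the median count of a tested 250 kb contact was 23.5 a library and its median SE 0.31 on the log2 scale, against 0.11 at 1 Mb.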
